A study of Mus musculus with 6 samples.

Results

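Dopamine acts on cells through a small family of receptors and is made and broken down by a few enzymes. The genes described here are those of the 5 dopamine receptors (Drd1, Drd2, Drd3, Drd4 and Drd5), of the receptor effector DARPP-32 (Ppp1r1b), of tyrosine hydroxylase (Th), which makes the precursor of dopamine, and of the monoamine oxidases (Maoa and Maob), which break dopamine down. They were taken by gene symbol from a table of RNA Seq values for 37620 genes, in which all 9 were found, with Drd1 listed under its older symbol Drd1a. RNA Seq was performed on pre-limbic cortex (PLc), which lies in medial prefrontal cortex, of C57Bl/6 mice that the labels give as 9 weeks old. Of these mice, 3 had been injected with saline (mice 1, 6 and 10) and 3 with ketamine at 30 mg/kg (mice 3, 5 and 9), by the intraperitoneal route, once a day for 5 days, and the PLc was dissected 2 days later. The study's methods give the mice as male. The tissue was a dissected block that holds many cell types. The comparison asks whether repeated injection of ketamine, an NMDA receptor antagonist, alters the expression of these genes in the PLc.

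The D1-like receptors (Drd1 and Drd5) couple to stimulatory G proteins and raise cyclic AMP, whereas the D2-like receptors (Drd2, Drd3 and Drd4) couple to inhibitory G proteins and lower it. DARPP-32 becomes an inhibitor of protein phosphatase 1 when protein kinase A phosphorylates it, so it carries the D1 signal onward. Drd1, Drd2 and Ppp1r1b are most abundant in the medium spiny neurons of the striatum, which lies close to the PLc, and are expressed at lower levels in cortical neurons. Th marks dopamine neurons of the midbrain and olfactory bulb and noradrenaline neurons of the brainstem, and some cortical interneurons also express it.

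Values are normalized counts, in which the reads of a gene are scaled by the size factor of their library. The reads behind them were between 26273436 and 32643726 per library. Markers of cortex were present in every library, but markers of other brain regions differed between libraries. Of 13 markers of cortical excitatory neurons, none was at 0 in any library, and their summed level ran from 56694 to 87776 normalized counts in the saline group and from 39856 to 67332 in the ketamine group. Of 12 markers of midbrain dopamine neurons, all 12 were highest in saline mouse 10, with a summed level of 9222 while the other saline mice had 1113 and 1394 and the ketamine group 1705 to 2649. The transcription factors Foxa1 and Pitx3, which define these neurons, had 48.3 and 19.8 normalized counts in saline mouse 10 and were at 0 in the other 5 mice. Of 22 markers of striatal medium spiny neurons, 18 were higher in ketamine mice 3 and 5 than in any other mouse. Their summed level was 60833 and 35103 there, 21259 in ketamine mouse 9 and between 11258 and 16630 in saline mice. Of the sum in ketamine mouse 9, 9586 came from Meis2, which was higher in that mouse than in any other. Isl1 and Six3 were at 0 in saline mice 1 and 6, at 1.81 and 0 in ketamine mouse 9, and at 29.65 and 3.29 in saline mouse 10. In ketamine mice 3 and 5 Isl1 had 386.65 and 135.47 normalized counts. Six3 had 13.7 and 1.88 there, so for Six3 ketamine mouse 5 was below saline mouse 10. Of 12 markers of olfactory bulb neurons, 10 were highest in ketamine mouse 9, with a summed level of 16068, while ketamine mice 3 and 5 had 6464 and 4502 and the saline group 1954 to 2604. Within each group, therefore, the libraries differed in markers of regions outside the cortex, and results are given below by mouse and with the mice named here left out.

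The starts of 7 of the 9 genes were found in the RefSeq promoter table (GRCm38.p6), which spans 250 bases before to 50 after a start, and each stretch had a single exact match in the mm9 genome, whose coordinates are given. Drd1 has 2 starts in the table, of which the one at the first base of the annotated gene is used. The stretch of Drd2 ends before the first base of the annotated gene, 49148732, so distances given for Drd2 are from the RefSeq start and not from that base. The stretch of Th lies within the annotated gene, which on the minus strand begins at base 150117033, so it is not the sequence before that gene's first base. The stretches of Drd1, Drd2 and Drd3, which were high in the same pair of ketamine mice, and of Th, which was highest in another, are shown 5′ to 3′ on the strand of the gene. Capitals mark the cyclic AMP response element TGACGTCA and its part TGACG, the Sp1 box GGGCGG and the TATA box TATAAA, each searched on both strands; a match on the other strand is in capitals as its reverse complement.
Drd1, chr13:54150978-54151277, minus strand: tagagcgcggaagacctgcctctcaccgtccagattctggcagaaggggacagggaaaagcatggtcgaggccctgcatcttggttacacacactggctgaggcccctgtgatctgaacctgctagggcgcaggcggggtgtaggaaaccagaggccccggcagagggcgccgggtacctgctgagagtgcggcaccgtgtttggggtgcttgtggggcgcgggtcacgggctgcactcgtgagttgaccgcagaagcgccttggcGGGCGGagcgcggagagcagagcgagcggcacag
Drd2, chr9:49148258-49148557, plus strand: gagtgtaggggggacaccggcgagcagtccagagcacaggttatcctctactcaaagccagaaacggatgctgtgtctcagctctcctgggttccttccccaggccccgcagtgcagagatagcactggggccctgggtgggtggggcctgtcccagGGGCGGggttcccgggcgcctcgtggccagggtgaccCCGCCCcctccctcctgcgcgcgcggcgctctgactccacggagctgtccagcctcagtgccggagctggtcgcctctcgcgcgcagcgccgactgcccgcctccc
Drd3, chr16:43762084-43762383, plus strand: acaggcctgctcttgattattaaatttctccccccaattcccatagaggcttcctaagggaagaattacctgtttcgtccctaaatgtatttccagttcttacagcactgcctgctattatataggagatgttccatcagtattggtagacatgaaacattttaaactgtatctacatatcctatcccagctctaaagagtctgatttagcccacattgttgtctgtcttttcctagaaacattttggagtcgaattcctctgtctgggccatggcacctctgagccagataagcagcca
Th, chr7:150085851-150086150, minus strand: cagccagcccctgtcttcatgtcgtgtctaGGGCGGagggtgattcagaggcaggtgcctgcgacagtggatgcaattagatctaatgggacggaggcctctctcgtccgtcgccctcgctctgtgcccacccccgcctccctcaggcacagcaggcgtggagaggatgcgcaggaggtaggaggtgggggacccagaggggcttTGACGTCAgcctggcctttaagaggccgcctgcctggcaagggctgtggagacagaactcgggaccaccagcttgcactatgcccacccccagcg
The stretch of Th held a full cyclic AMP response element that began 45 bases before the start, a sequence present in 1.79% of the 32851 promoters of the table, and an Sp1 box that began 220 bases before it. The stretch of Drd2 held 2 Sp1 boxes, 93 and 56 bases before the start, and that of Drd1 held 1, just after the start. An Sp1 box was present in 35.7% of all promoters. None of the searched letters was found in the Drd3 stretch, which held 2 CG pairs, against 23 each for Drd1 and Drd2, 15 for Th and a median of 7 over the table. TATAAA was found in 13.6% and TGACG in 20.8% of all promoters.

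Among the receptors, Drd1, Drd2 and Drd3 were far higher in ketamine mice 3 and 5 than in the saline mice, while ketamine mouse 9 was not above the range of the saline mice. Drd5 and Drd4 had lower means in ketamine. No member separated the groups: for all 9 genes, the values of ketamine and saline mice overlapped, where 10.3% of the 16127 genes tested did not overlap between groups. Genes were tested with limma on log2(normalized count + 1) where the mean over the 6 mice was at least 10 normalized counts, which kept 8 of the 9 genes. The added 1 makes fold changes of genes with few counts too small. limma called 0 of the 8 at an adjusted p under 0.05, as it did over all genes tested (0%), and 1 of the 8, Drd3, had an unadjusted p under 0.05, against 5.81% of all genes. On the recovered reads, edgeR also called 0, as it did over all genes tested (0%), with 3 unadjusted p-values under 0.05 (Drd1, Drd3 and Ppp1r1b; 6.24% of all genes). DESeq2 called 1 of the 8, Drd3, as higher in ketamine, where it called 1.13% of all genes, and 0.899% as higher, with 4 unadjusted p-values under 0.05 (those 3 genes and Drd2; 6.54% of all genes). Run over all 24521 genes with a read, DESeq2 called 0.767% of genes, 0.624% as higher, and gave 4.68% an unadjusted p under 0.05, and Drd3 was again the member called. Drd3 reached the minimum mean of 10 only through ketamine mice 3 and 5, where it is high, so its place among the genes tested already rests on that difference.

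**Figure D1:**
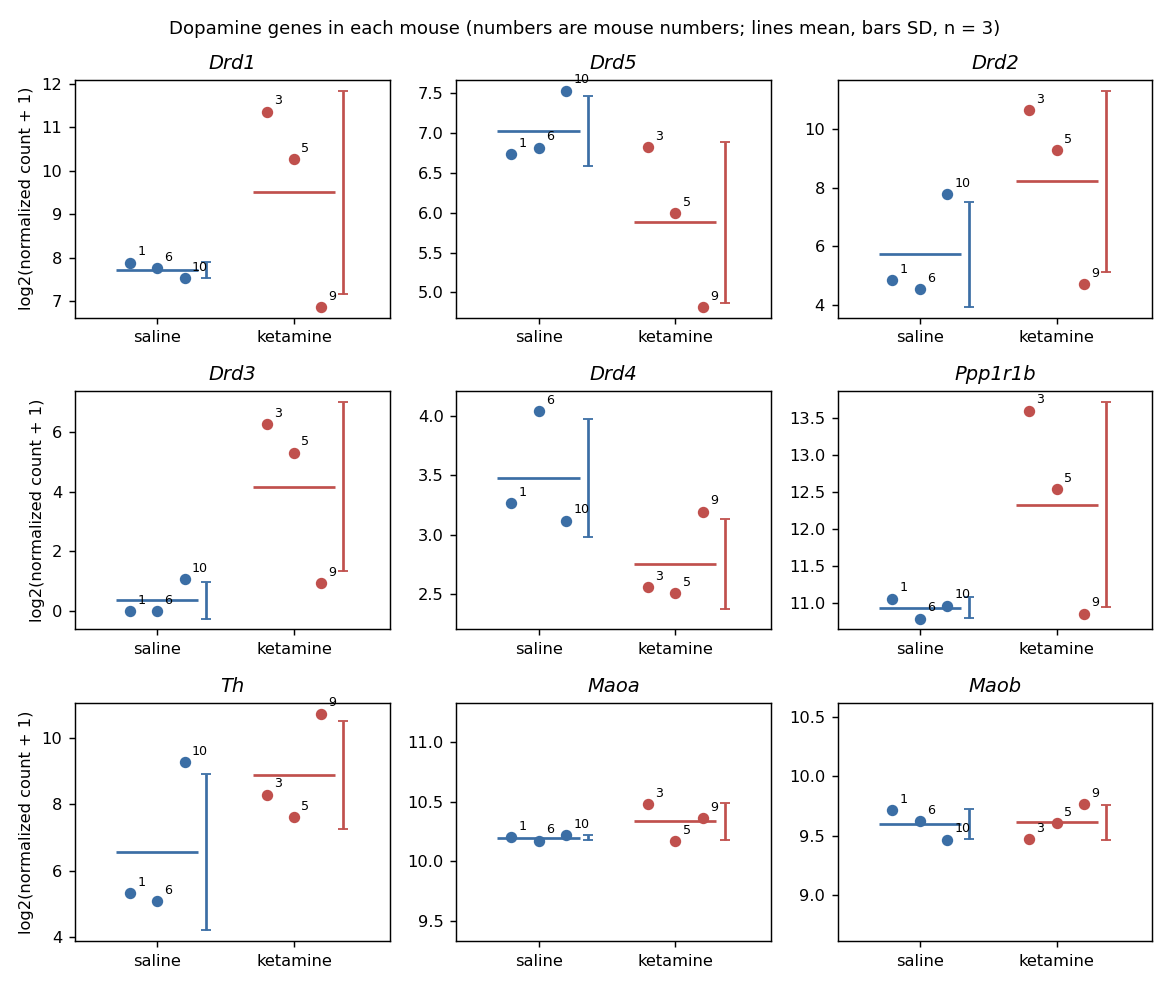
Expression of the 9 dopamine genes in each mouse, as log2(normalized count + 1) on the vertical axis, for saline mice (blue) and ketamine mice (red), with the mouse number beside each point, the mean as a line and the SD as a bar (n = 3 each). Each vertical axis has its own range of at least 2 log2 units and does not start at 0. Drd1, Drd2, Drd3 and Ppp1r1b were highest in ketamine mice 3 and 5, Th was highest in ketamine mouse 9, and Maoa and Maob spanned 0.31 and 0.30 on the log2 scale over the 6 mice.

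Drd1 (ENSMUSG00000021478) encodes the main D1-like receptor and spans 54146555 to 54151027 of chromosome 13 (mm9, the build of all positions here; minus strand). It had 237, 215 and 184 normalized counts in saline mice 1, 6 and 10, against 2631, 1237 and 116 in ketamine mice 3, 5 and 9. Thus the highest and the lowest of the 6 values, 22.7-fold apart, were both in ketamine mice. On the log2 scale ketamine exceeded saline by 1.77 (standard error, SE, 1.02, 95% interval from -0.62 to 4.17, limma adjusted p = 0.999; two-sided exact permutation p = 0.4), which did not pass the test. With ketamine mouse 9 left out it was 3.09 (adjusted p = 0.0884), and with ketamine mice 3 and 5 left out it was -0.86 (adjusted p = 0.163), a fit in which mouse 9 was assumed to vary like the saline mice. Drd1 and the striatal markers were both highest in ketamine mice 3 and 5, but they parted in ketamine mouse 9. There Drd1 was below every saline mouse. The mean log2 value of the striatal list stood at -0.549 from the mean of the 6 mice, above the saline mice (-1.105 to -0.713). The part of these markers in the result was not tested. In a tissue block more cells that express a gene and more RNA per cell cannot be told apart.

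Drd2 (ENSMUSG00000032259), the main D2-like receptor gene, on the plus strand of chromosome 9 from 49148732 to 49216282, had 27.8 and 22.2 normalized counts in saline mice 1 and 6 and 221 in saline mouse 10. It had 1609, 618 and 25.4 in ketamine mice 3, 5 and 9. The saline group was therefore itself split, and the mouse with the high value was the one with the midbrain markers; their part in it was not tested. The log2 difference of the means was 2.49 (SE 1.55, 95% interval from -1.15 to 6.13, adjusted p = 0.999 by limma). Without saline mouse 10 it was 3.52 (adjusted p = 0.508), without ketamine mouse 9 it was 4.24 (adjusted p = 0.285), and without ketamine mice 3 and 5 it was -1.0 (adjusted p = 0.705). Per kilobase of exon, Drd1 exceeded Drd2 by a factor of 6.15 and 7.0 in saline mice 1 and 6 and 3.30 in ketamine mouse 9. The factor was 1.18 and 1.45 in ketamine mice 3 and 5, and 0.604 in saline mouse 10, the only library in which Drd2 was the higher of the pair. The groups overlapped in this ratio (two-sided exact permutation p = 0.7).

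Drd3 (ENSMUSG00000022705), a D2-like receptor gene best known from the ventral striatum and its islands of Calleja, lies on the plus strand of chromosome 16 from 43762334 to 43823045. It had 0, 0 and 1 reads in saline mice 1, 6 and 10, against 77, 41 and 1 in ketamine mice 3, 5 and 9. Nearly all of its reads thus came from the same pair of mice. In sum, 119 reads in ketamine stood against 1 in saline, a 112-fold ratio after scaling, with an exact 95% interval from 19.7-fold to 4446-fold that covers counting error only and not the difference between mice. limma gave a log2 fold change of 3.81 (SE 1.34, 95% interval from 0.66 to 6.96, adjusted p = 0.753; exact permutation p = 0.2), and it depended on the pseudocount because the saline level was near 0. It was 6.74 with DESeq2 (adjusted p = 0.00996). Without ketamine mouse 9 it was 5.42 (adjusted p = 0.106 by limma), without saline mouse 10 it was 4.16 (adjusted p = 0.408), and without ketamine mice 3 and 5 it was 0.58 (adjusted p = 0.808).

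Drd5 (ENSMUSG00000039358), the other D1-like receptor gene, on the plus strand of chromosome 5 from 38710748 to 38713549, is a single exon and had a lower mean in ketamine. It had 105, 112 and 184 normalized counts in saline mice 1, 6 and 10, against 113, 63.0 and 27.2 in ketamine mice 3, 5 and 9. The lowest pair of values were in ketamine mice, but ketamine mouse 3 lay above saline mice 1 and 6. Ketamine stood at -1.15 on the log2 scale relative to saline (SE 0.506, 95% interval from -2.34 to 0.04, adjusted p = 0.875 by limma; exact permutation p = 0.3). Leaving out single mice gave values from -1.62 to -0.62. An antisense gene, Gm16766, shares 1386 of its 2802 exon bases, and had between 1.81 and 8.69 normalized counts; without a stated strand setting, reads of the pair cannot be told apart. Drd4 (ENSMUSG00000025496), a D2-like receptor gene, on the plus strand of chromosome 7 from 148477929 to 148482362, was near the limit of detection. Its reads were 9, 16 and 7 in saline mice 1, 6 and 10, against 5, 5 and 9 in ketamine mice 3, 5 and 9. At this depth a single library is imprecise: the exact 95% interval, which covers counting error only, ran from 9.15 to 26.0 for 16 reads and from 1.62 to 11.7 for 5 reads. Its mean of 8.25 normalized counts was below the minimum for testing, and the exact permutation p was 0.2.

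Ppp1r1b (ENSMUSG00000061718), the gene of DARPP-32, was the most abundant of the 9 genes in every saline mouse, and like Drd1 to Drd3 was highest in ketamine mice 3 and 5. It lies on the plus strand of chromosome 11 from 98209718 to 98219110. It had 2133, 1769 and 1996 normalized counts in saline mice 1, 6 and 10, against 12441, 5942 and 1851 in ketamine mice 3, 5 and 9. Ketamine mouse 9 was within the range of the saline mice, which spread by only 184 (SD, n = 3). Its log2 fold change was 1.39 (SE 0.608, 95% interval from -0.04 to 2.82, adjusted p = 0.867 by limma, 0.0582 by DESeq2; exact permutation p = 0.3). Without ketamine mouse 9 it was 2.13 (adjusted p = 0.127 by limma), and without ketamine mice 3 and 5 it was -0.08 (adjusted p = 0.794). The antisense gene 1700003D09Rik shares 460 of its 2928 exon bases and had at most 7.69 normalized counts. Between the pair of high mice, the values in mouse 3 over those in mouse 5 were 2.09 for Ppp1r1b, 2.13 for Drd1, 2.60 for Drd2 and 1.95 for Drd3, against 1.73 for the summed striatal markers. That sum holds Meis2, with 6957 and 6705 normalized counts, a ratio of 1.04. Single striatal markers ran from 1.03 for Actn2 to 7.29 for Six3, so the members lay within their range. Per kilobase of exon, Ppp1r1b exceeded Drd1 by a factor of 5.69 and 5.78 in these mice, and of between 9.90 and 19.2 in the other 4.

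**Figure D2:**
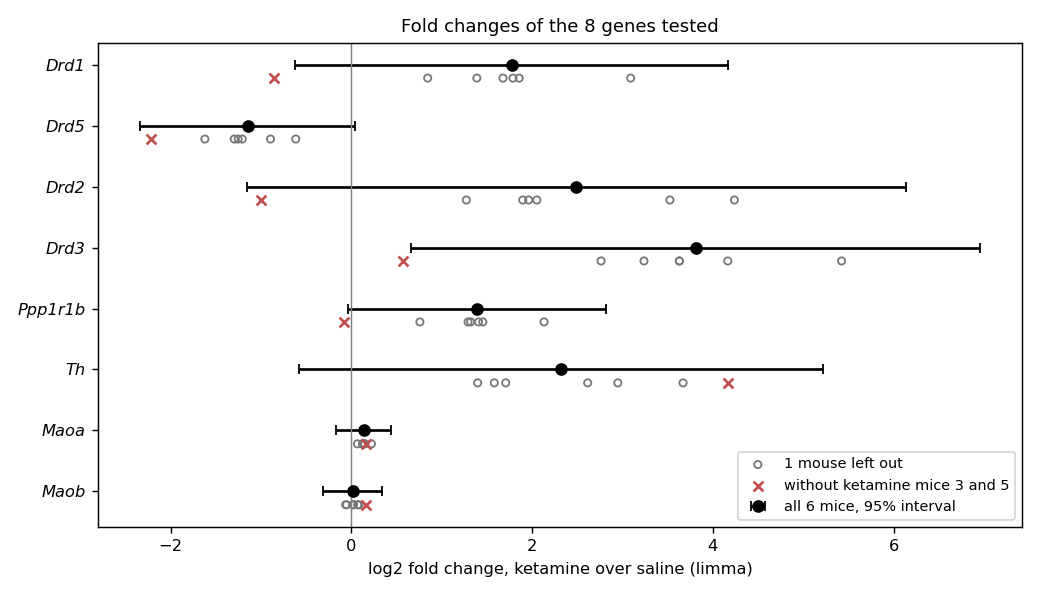
Log2 fold change of ketamine over saline for the 8 genes tested (horizontal axis), with all 6 mice and its 95% interval from limma (black), with each mouse left out in turn (open circles) and without ketamine mice 3 and 5 (red crosses). Leaving out this pair turned the direction for Drd1, Drd2 and Ppp1r1b, to -0.86, -1.0 and -0.08, and left Drd3 at 0.58, while Th went to 4.17.

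Th (ENSMUSG00000000214), the rate-limiting enzyme of dopamine synthesis, did not follow the receptors. It lies on the minus strand of chromosome 7 from 150078657 to 150117033. It had 39.3, 32.8 and 611 normalized counts in saline mice 1, 6 and 10, against 311, 196 and 1687 in ketamine mice 3, 5 and 9. All ketamine mice were above saline mice 1 and 6, but saline mouse 10 was above ketamine mice 3 and 5, so the groups overlapped. For Th the log2 fold change was 2.32 (SE 1.24, 95% interval from -0.58 to 5.22, adjusted p = 0.969 by limma; exact permutation p = 0.3). Without saline mouse 10 it was 3.67 (adjusted p = 0.261), and without ketamine mouse 9 it was 1.40 (adjusted p = 0.744). The pair of libraries with the highest Th differed in other genes. In saline mouse 10 the dopamine transporter gene Slc6a3 had 1821 normalized counts, and the aromatic amino acid decarboxylase gene Ddc had 1108. In ketamine mouse 9 Slc6a3 had 102 and Ddc 237, and the olfactory bulb gene Eomes had 1129, against 7.69 in saline mouse 10. The summed level of 7 markers of noradrenaline and serotonin neurons ran from 36.7 to 87.9 in saline and from 33.9 to 46.2 in ketamine. The part of these cell types in the level of Th was not tested.

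Maoa and Maob, whose enzymes sit on the outer mitochondrial membrane, were close to level in all mice. Maoa (ENSMUSG00000025037), on the plus strand of chromosome X from 16196824 to 16264944, had 1179, 1154 and 1191 normalized counts in saline mice 1, 6 and 10, against 1426, 1151 and 1318 in ketamine mice 3, 5 and 9. Ketamine mouse 5 was the lowest of the 6, and the other ketamine mice were the highest. Its log2 fold change of 0.14 had a 95% interval from -0.16 to 0.44 (SE 0.129, limma adjusted p = 0.999). Maob (ENSMUSG00000040147), on the minus strand of the same chromosome from 16286408 to 16394492, is known from astrocytes and serotonin neurons. It had 837, 786 and 706 normalized counts in saline mice 1, 6 and 10, against 709, 776 and 868 in ketamine mice 3, 5 and 9, which put the log2 fold change at 0.01 with an interval from -0.32 to 0.34 (SE 0.141, limma adjusted p = 0.999). The groups overlapped over most of their range. For both genes the highest value was at most 1.24 times the lowest, whereas 6 of the 9 genes spanned more than 2 on the log2 scale, as did 8.20% of all genes tested. The summed level of 10 astrocyte markers ran from 101449 to 122282 in saline and from 84040 to 124357 in ketamine, with none at 0. Slc1a2 was the largest part of each sum, at 81915 in saline mouse 1 and 38388.5 in ketamine mouse 9, the mouse with the lowest sum. As a mean of log2 values over the list, ketamine mouse 9 stood at 0.07 and saline mouse 1 at -0.20 from the mean of the 6 mice. Per kilobase, Maoa stood to Maob at from 0.943 to 1.13 in saline and from 0.992 to 1.35 in ketamine mice (exact permutation p = 0.5).

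Per kilobase of merged exon, the order of mean levels in saline mice was Ppp1r1b (672 ± 62.8 normalized counts per kilobase; SD, n = 3), Maoa (282 ± 4.55), Maob (278 ± 23.7), Th (96.3 ± 140), Drd1 (60.2 ± 7.43), Drd5 (47.8 ± 15.7), Drd2 (35.4 ± 44.4), Drd4 (3.82 ± 1.53) and Drd3 (0.252 ± 0.436). Drd5 and Ppp1r1b were divided by all their exon bases, although 1386 of 2802 and 460 of 2928 are shared with antisense genes. How reads there were counted is not given, so the levels of this pair, and the place of Drd5, are less certain. Only Ppp1r1b at the top, and Drd4 and Drd3 at the foot, were separated from their neighbours in every saline mouse, since from Maoa down to Drd2 each gene overlapped with its neighbour. The values of Th and Drd2 came mainly from saline mouse 10, at 258 and 86.7 per kilobase against at most 16.6 and 10.9 in saline mice 1 and 6. The mean levels per kilobase with ketamine were 2304 ± 1824 for Ppp1r1b, 377 ± 357 for Drd1 and 295 ± 314 for Drd2 (SD, n = 3 each).

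**Figure D3:**
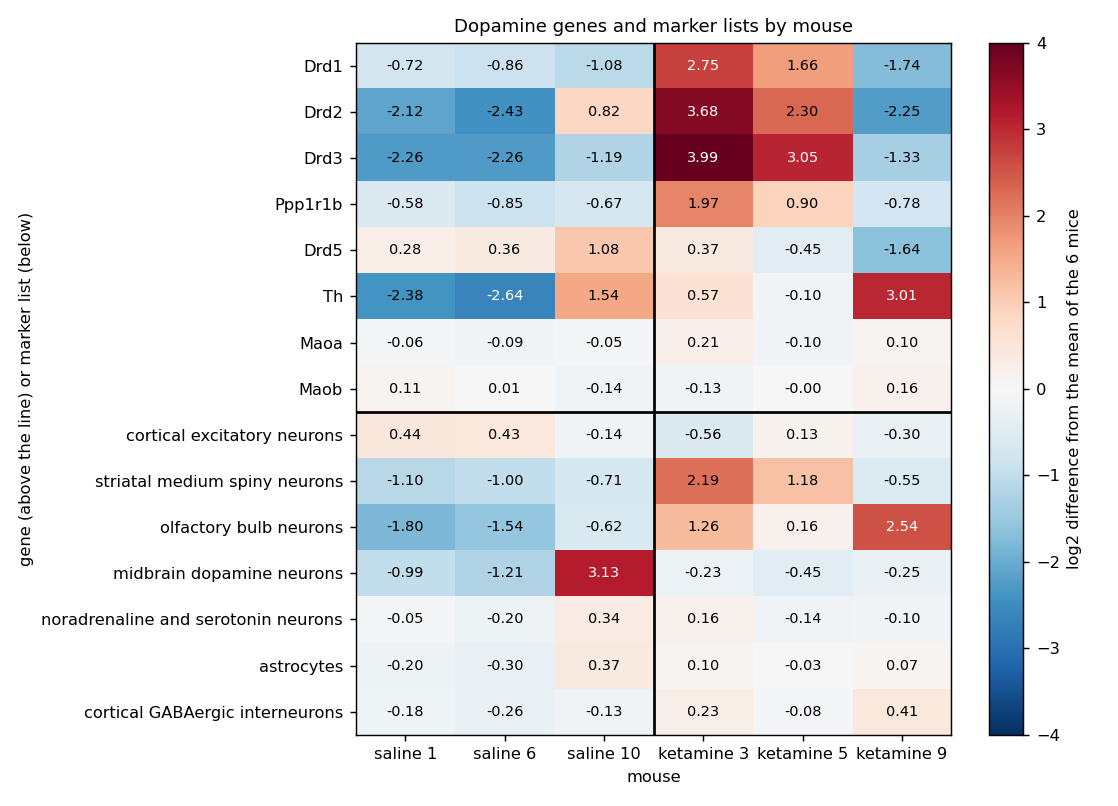
Map of 8 dopamine genes (above the line) and 7 marker lists (below it) in the 6 mice, with the log2(normalized count + 1) value of a gene, or its mean over a list, given as the difference from the mean of the 6 mice in colour and in figures. Striatal markers stood at 2.19 and 1.18 in ketamine mice 3 and 5, olfactory bulb markers at 2.54 in ketamine mouse 9 and midbrain dopamine markers at 3.13 in saline mouse 10, with Drd1 at 2.75 and 1.66 in ketamine mice 3 and 5 and Th at 3.01 and 1.54 in ketamine mouse 9 and saline mouse 10.

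The genes whose profile over the 6 mice lay nearest to that of each member that spanned more than 2 on the log2 scale were found by the root-mean-square difference of centred log2 values, among 16126 other genes. The differences are a description over 6 libraries that share the marker differences given above. For Drd1 the nearest were Cd4 (0.15 on the log2 scale), Ptpn7 (0.35) and Rgs9 (0.38). For Drd2 they were 4932418E24Rik (0.33), LOC100505036 (0.63) and Gm13112 (0.72), all higher in saline mouse 10 than in saline mice 1 and 6, as Drd2 was. For Drd3 they were Serpina9 (0.38), Adora2a (0.61) and Sh3rf2 (0.68), each a gene of the striatal marker list. That list was chosen with earlier results of these data known. Drd3 and Serpina9 also reached the minimum mean only through ketamine mice, so the match is not independent support. For Ppp1r1b they were Rarb (0.09), Prkch (0.21) and B230314M03Rik (0.25), for Drd5 Lpo (0.21), Mmel1 (0.28) and Bves (0.29), and for Th Barhl2 (0.49), Gm16201 (0.67) and Nxph4 (0.69). Barhl2, a gene of the olfactory bulb list, had 0.96 and 0 normalized counts in saline mice 1 and 6 and between 5.64 and 47.1 in the other 4 mice.

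Among other genes of dopamine synthesis, transport and breakdown, none passed the test. Of 15 such genes, 14 were tested, and limma, edgeR and DESeq2 each called 0, where they called 0%, 0% and 1.13% of all genes tested. Each gave 0 unadjusted p-values under 0.05, where the shares over all genes tested were 5.81%, 6.24% and 6.54%. The median log2 fold change by limma was 0.09, beside -0.01 over all genes tested, with 10 genes above 0 and 4 below. The smallest p was that of Dbh, which makes noradrenaline from dopamine, at 11.5, 10.6 and 13.2 normalized counts in saline mice 1, 6 and 10, against 15.7, 16.9 and 17.2 in ketamine mice 3, 5 and 9. Dbh was the single gene of the list whose groups did not overlap, where 10.3% of all genes tested did not. Its log2 fold change was 0.47 (SE 0.326, limma adjusted p = 0.999). Next came Slc22a3, a low-affinity monoamine transporter, at 0.58 (SE 0.618), Pcbd1, an enzyme of cofactor recycling, at 0.23 (SE 0.304), Aldh1a1, an aldehyde dehydrogenase of dopamine neurons, at -0.36 (SE 0.560), and Slc29a4, a plasma membrane monoamine transporter, at 0.25 (SE 0.455), each with an adjusted p of 0.999 by limma. The noradrenaline transporter gene Slc6a2 had at most 1.88 normalized counts in any mouse and was not tested. Of the 15 genes, 8 were highest in saline mouse 10. Slc6a3 and the vesicular transporter gene Slc18a2, named here after their values were seen, had 1821 and 812 normalized counts there, against at most 102 and 87.1 in any other mouse, and DESeq2 gave no adjusted p for either. Both, like Ddc and Aldh1a1, stand also in the list of midbrain dopamine markers, and Dbh and Slc6a2 in that of noradrenaline and serotonin neurons.

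**Figure D4:**
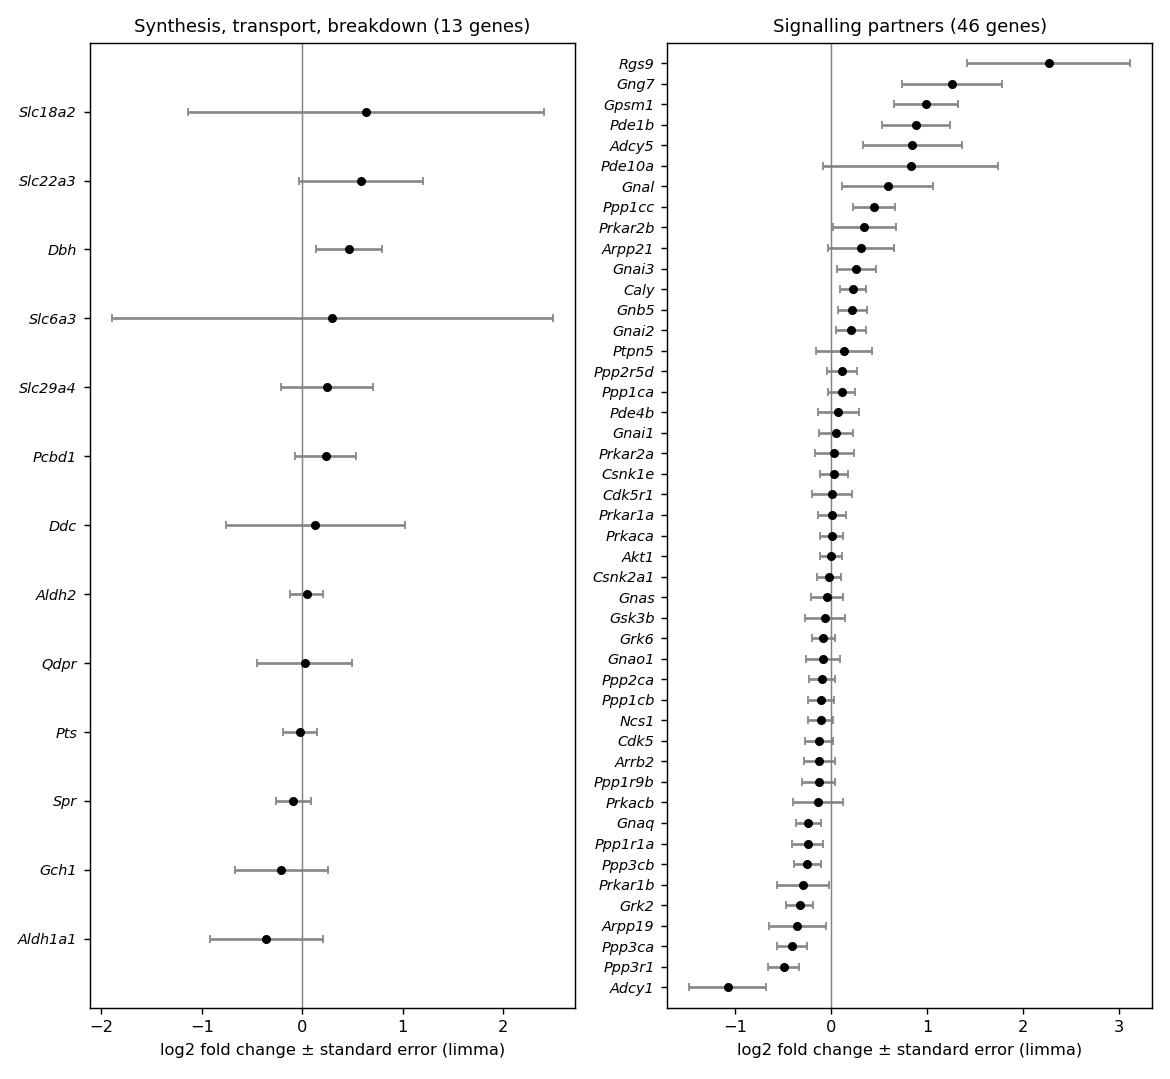
Log2 fold change of ketamine over saline with its SE from limma (horizontal axis) for 13 of the 14 tested genes of dopamine synthesis, transport and breakdown (left) and 46 tested partners of receptor and DARPP-32 signalling (right), ordered by fold change. Slc6a3 and Slc18a2 had the widest errors on the left, and on the right Rgs9 was highest, at 2.27, and Adcy1 lowest, at -1.08.

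Among partners of receptor and DARPP-32 signalling, the 5 genes with the smallest p-values were Rgs9, which followed Drd1 by mouse, Ppp3r1, Ppp3ca and Adcy1, which were lower in every ketamine mouse, and Gpsm1, which was higher in every one. Of 47 partners, 46 were tested, and limma, edgeR and DESeq2 each called 0, where they called 0%, 0% and 1.13% of all genes tested. Of the partners, 7, 6 and 9 had unadjusted p-values under 0.05, where the shares over all genes tested were 5.81%, 6.24% and 6.54%. Their log2 fold changes had a median of 0.0044, and 24 were above 0 and 22 below. The groups did not overlap for 8 of the 46, 2 with ketamine above and 6 with ketamine below. Over all genes tested, 5.69% were higher and 4.66% lower in every ketamine mouse. Rgs9, a regulator of striatal G-protein signalling, had 278, 252 and 305 normalized counts in saline mice 1, 6 and 10, against 3737, 2249 and 287 in ketamine mice 3, 5 and 9, the pattern of Drd1. It had a log2 fold change of 2.27 (SE 0.852, limma adjusted p = 0.788).

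Ppp3r1 and Ppp3ca encode subunits of calcineurin, the phosphatase that reverses the phosphorylation of DARPP-32 by protein kinase A, and both were lower in every ketamine mouse. Ppp3r1 had 31908, 33754 and 28518 normalized counts in saline mice 1, 6 and 10, against 19677, 21882 and 25387 in ketamine mice 3, 5 and 9. On the log2 scale this was -0.50 (SE 0.165, limma p = 0.0192, adjusted p = 0.699; exact permutation p = 0.1, the smallest that 3 against 3 mice allow). Ppp3ca had 47294, 42862 and 50521 in saline and 33643, 35150 and 36977 in ketamine mice, or -0.41 on the log2 scale (SE 0.158, limma adjusted p = 0.797). For both genes ketamine mouse 9 was the nearest of the ketamine mice to the saline mice. Adcy1, a calcium-activated adenylyl cyclase, had 29640, 23038 and 27593 in saline and 13573, 22042 and 6676 in ketamine mice, or -1.08 on the log2 scale (SE 0.402, limma adjusted p = 0.784). Markers of cortical excitatory neurons were also lower on average, at a median of -0.51 on the log2 scale, and 11 of the 13 were below 0; their part in these values was not tested. Gpsm1, a modulator of inhibitory G proteins, had 1256, 1281 and 1059 in saline and 1765, 1797 and 4217 in ketamine mice, or 0.99 on the log2 scale (SE 0.333, limma adjusted p = 0.71), with its highest value in ketamine mouse 9. Taar1, the trace amine receptor gene, was at 0 reads in all 6 mice.

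Of the lists of markers, limma and edgeR called 0 genes in any, as over all genes tested (0% each), with a smallest limma adjusted p of 0.0922, in the striatal list. Unadjusted limma p-values were under 0.05 for 11 striatal, 9 olfactory bulb, 6 interneuron, 4 cortical excitatory and 1 astrocyte markers and for 0 of the others, where 5.81% of all genes tested were. DESeq2 called 7 striatal and 7 olfactory bulb markers higher, 1 cortical excitatory marker lower, and 1 interneuron marker in each direction, where it called 0.899% of all genes higher and 0.229% lower. The lists were chosen with earlier results of these data known, so these counts are a description and not independent support. Among the markers called, Serpina9, Eomes and Tbx21 had saline means of 6.87, 9.31 and 3.02 normalized counts. They reached the minimum mean of 10 only through ketamine mice, where they are high. Median log2 fold changes were 1.40 over 21 tested striatal markers, of which all 21 were above 0, 2.67 over 12 olfactory bulb markers, of which all 12 were above 0, and -0.01 over 9 midbrain dopamine markers. They were -0.23 over 2 markers of noradrenaline and serotonin neurons, 0.06 over 10 astrocyte markers and 0.21 over 12 markers of cortical GABAergic interneurons, with 6 of these 12 above 0. The summed level of the interneuron markers ran from 23655 to 28530 normalized counts in saline and from 30497 to 46365 in ketamine, but the genes were mixed. In every ketamine mouse 5 of the 12 were higher (Gad1, Gad2, Slc32a1, Calb2 and Ndnf) and 2 lower (Pvalb and Sst), where 5.69% and 4.66% of all genes tested were. The higher genes differed by mouse. Gad2 had 15054, 6999 and 4972 in ketamine mice 3, 5 and 9 and, like Slc32a1, was highest in mouse 3. Calb2 had 1860, 945 and 7274 and, like Gad1 and Ndnf, was highest in mouse 9. The part of the striatal and olfactory bulb differences in these values was not tested. Pvalb had 1105, 893 and 2261 in saline mice 1, 6 and 10, against 535, 516 and 670 in ketamine mice 3, 5 and 9.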

How the data were processed

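PLc tissue of 6 mice, 3 given saline and 3 given ketamine, was used for RNA Seq, with a library for each. Groups and mouse numbers came from the sample titles. The labels do not state in words that each library is a separate animal, so p-values measure the spread between these libraries. The numbers differ between groups, so nothing pairs the mice. The authors aligned reads to mm9 with TopHat2 2.0.11, counted them with HTSeq and normalized with DESeq2. What the authors deposited is thus a scaled signal for each gene, its count over the size factor of the library. Which annotation, strand setting or filter they used is not given in the sources used here. Multiplying back gave whole reads for 100% of values in every library (tolerance 0.1 reads). They differed by more than counting noise between every pair of libraries (chi-square per degree of freedom of at least 10.5).

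Normalized counts were compared with limma 3.58.1 (trended prior; R 4.3.3) on log2(value + 1), for the 16127 genes whose mean reached 10. P-values are two-sided and adjusted over all genes tested by the Benjamini-Hochberg method, with a threshold of 0.05. edgeR 4.0.16 and DESeq2 1.42.0 were run on the recovered reads. Single genes were also compared with exact permutation tests (SciPy 1.17.1). The tests were checked on simulated reads. Positions and exon lengths are those of GENCODE M1 on mm9. The members and gene lists were chosen with earlier results of these data known. Of 23 striatal markers, 22 were found. The lists cover dopamine synthesis, transport and breakdown, signalling partners, and markers of cortical excitatory neurons, striatal medium spiny neurons, olfactory bulb neurons, midbrain dopamine neurons, noradrenaline and serotonin neurons, astrocytes and cortical GABAergic interneurons. Named genes are the 9 members, the 5 of each pathway list with the smallest p and those with a mean under 10, and the 3 nearest profiles of each member spanning more than 2; others, such as Ddc, Eomes and the region markers, were named after their values were seen. The values of some list genes are not reported here. Alternatives were pseudocounts of 0.1 and 5, no filter, a minimum of 100, recomputed size factors, upper-quartile and TMM scaling, no trend, edgeR, DESeq2, and leaving out each mouse or ketamine mice 3 and 5.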

Additional observations from a re-analysis of the deposited data

How the results depend on the processing

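With 6 mice the intervals were wide. Of 154 recomputed log2 fold changes of the 9 genes, 147 kept their direction and their side of the threshold, 5 turned and 2 passed it. Without ketamine mice 3 and 5 the direction turned for Drd1 (-0.86), Drd2 (-1.0) and Ppp1r1b (-0.083), where mouse 9 was the only ketamine mouse. Drd3 passed the threshold with DESeq2, at 6.74 over the same genes and over all genes with a read. With each mouse left out in turn, the log2 fold change ranged from 0.84 to 3.09 for Drd1, from 1.27 to 4.24 for Drd2, from 2.76 to 5.42 for Drd3, from -0.94 to -0.44 for Drd4, from 0.76 to 2.13 for Ppp1r1b, from 1.40 to 3.67 for Th, from 0.07 to 0.22 for Maoa and from -0.062 to 0.084 for Maob, which fell below 0 without saline mouse 10 or ketamine mouse 9. Pseudocounts of 0.1 and 5 moved Drd3 to 5.97 and 2.36. The count of genes called, 0 with limma, was 182 with DESeq2 and 188 over all genes with a read, and between 0 and 1 with a mouse left out (Trh without ketamine mouse 5, and Cdhr1 without ketamine mouse 9). No alternative called a gene of the pathway lists. Drd4, and Drd3 at a minimum of 100 normalized counts, could not be fitted where the filter removed them. No paired analysis was possible because the groups share no mouse number.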
